A study of Rattus norvegicus and Mus musculus with 24 samples.

Results

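Ctns, the gene deleted in these animals, lies in a compact stretch of chromosome with 8 neighbours that are described here with it: SHPK, TRPV1 and TRPV3 on one side, and TAX1BP3, EMC6, P2RX5, NCBP3 and P2RX1 on the other. The members were the rows of the mouse and rat tables that carry 1 of these 9 symbols. The list follows chromosomal position, was set with earlier results of these data known, and is not complete. It leaves out CAMKK1, ITGAE and HASPIN, which lie between the members. All 9 were found in both tables, of 17376 symbols for the mouse and 14931 for the rat. The libraries came from bulk mRNA of kidney, 1 per animal: 4 Ctns KO and 4 WT mice on a C57BL/6 background, and 8 Ctns KO and 8 WT rats on a Sprague-Dawley background, with littermates as controls. The methods and the tissue label name kidney cortex, whereas the cell type label and the extraction protocol name proximal tubule cells, and the sources do not resolve this. The study describes its groups as matched for age and sex and its mice as female, and it does not say which of its mouse ages was sequenced, nor the age, sex or treatment of the sequenced rats. The exons removed by each deletion and how each line was made were not given in the sources used here. Rat numbers fall into 2 ranges of unexplained meaning, rats 17 to 24 and rats 25 to 32, each with 4 animals of either genotype.

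Cystinosin, the product of Ctns, is a proton-driven transporter that carries cystine out of the lysosome, and its loss causes the storage disease cystinosis, in which the proximal tubule of the kidney is among the first sites to fail. The gene is flanked head to head by Shpk, which encodes sedoheptulokinase, a kinase of a sugar of the pentose phosphate pathway, and the common human CTNS deletion reaches into SHPK and towards TRPV1. The neighbours therefore serve to ask how far along the chromosome RNA levels differ between the genotypes.

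In the mouse (GRCm38) the 9 genes lie on chromosome 11. Ctns occupies chr11:73183596-73199042 on the minus strand and Shpk chr11:73199460-73224511 on the plus strand, so that their starts are 418 bp apart and the genes point away from each other. Trpv1 starts 35.2 kb and Trpv3 68.3 kb beyond the start of Ctns, both on the plus strand. On the other side, Tax1bp3 on the plus strand runs towards Ctns and ends 433 bp short of it. Tax1bp3 and Emc6 form a second head-to-head pair with starts 46 bp apart, 22 kb from the start of Ctns. P2rx5 and Ncbp3 follow at 38.6 and 151 kb, and P2rx1 lies farthest away. No member overlaps another gene in this annotation. In the rat annotation GRCr8 the 9 genes also lie on 1 chromosome and in the same order.

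**Figure D1:**
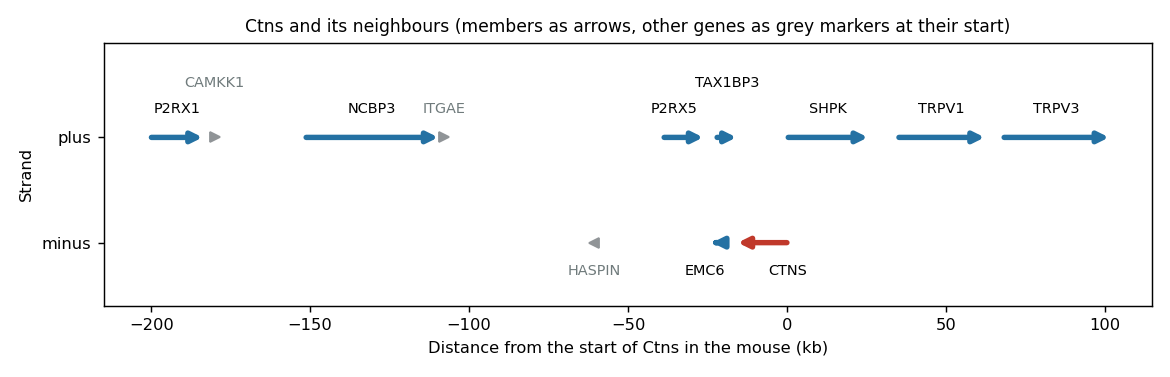
Map of the 9 genes (arrows from start to end, Ctns in red) and of the 3 other protein-coding genes between them (grey markers at their starts), by distance in kb from the start of Ctns in the mouse and by strand. The Ctns and Shpk arrows leave the same point in opposite directions, and the arrow head of Emc6 is longer than the gene.

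The promoters of the 2 head-to-head pairs are shown because the members of each pair are compared below. Each sequence holds the 250 bases before the RefSeq start of the rat gene (GRCr8, chromosome 10), 5′ to 3′ on the strand of the gene. Capitals mark matches on either strand to the GC box GGGCGG, the CCAAT box CCAAT or the E-box core CACGTG.
Ctns, chr10:58315633-58315882, minus strand: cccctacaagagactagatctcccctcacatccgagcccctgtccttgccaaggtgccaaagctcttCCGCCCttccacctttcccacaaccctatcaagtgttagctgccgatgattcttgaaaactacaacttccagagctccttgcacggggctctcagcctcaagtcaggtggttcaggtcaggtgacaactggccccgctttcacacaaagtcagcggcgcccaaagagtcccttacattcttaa
Shpk, chr10:58315891-58316140, plus strand: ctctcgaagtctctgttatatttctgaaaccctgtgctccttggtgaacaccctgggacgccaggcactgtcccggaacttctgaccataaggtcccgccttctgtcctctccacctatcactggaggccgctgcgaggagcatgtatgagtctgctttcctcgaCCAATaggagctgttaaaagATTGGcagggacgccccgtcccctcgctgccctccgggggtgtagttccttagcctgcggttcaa
Emc6, chr10:58293851-58294100, minus strand: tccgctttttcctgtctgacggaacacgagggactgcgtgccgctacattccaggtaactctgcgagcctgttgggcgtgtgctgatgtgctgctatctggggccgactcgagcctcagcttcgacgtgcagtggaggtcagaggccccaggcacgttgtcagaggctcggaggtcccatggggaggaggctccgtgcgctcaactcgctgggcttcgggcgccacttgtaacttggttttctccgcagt
Tax1bp3, chr10:58294107-58294356, plus strand: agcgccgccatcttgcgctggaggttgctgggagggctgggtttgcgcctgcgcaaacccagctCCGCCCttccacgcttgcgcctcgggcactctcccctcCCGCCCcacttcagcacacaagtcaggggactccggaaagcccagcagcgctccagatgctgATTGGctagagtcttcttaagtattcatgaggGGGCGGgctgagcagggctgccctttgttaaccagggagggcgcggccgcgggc
The Ctns and Shpk windows are separated by 8 bases, and those of Emc6 and Tax1bp3 by 6, so each pair of windows fills a single short interval. The rat starts of Emc6 and Tax1bp3 thus lie farther apart than 250 bases, whereas the mouse starts are 46 bp apart. The 2 annotations differ for this pair, and whether the rat starts are those used in kidney was not tested. Ctns has 1 GC box and no CCAAT box, Shpk has 2 CCAAT boxes and no GC box, Tax1bp3 has 3 GC boxes and 1 CCAAT box, and Emc6 has no match to any of the 3 motifs. Of 33469 rat promoter windows of this table, 30.5% hold a GC box, 34% a CCAAT box and 5.59% an E-box core. Trpv3 holds the single E-box core among the 8 members with a window in the table, and P2rx5 has no window there. A match to such short letters is a description and not a binding site.

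The mouse table holds scaled values, in which 1 is the 75th percentile of a library, and the rat table holds reads, given here as CPM, the usual depth-scaled count, after TMM scaling. The mouse libraries held between 19309449 and 44449859 reads, the rat libraries between 24684097 and 40629873. A gene was called at an adjusted p under 0.05, over all symbols tested. In all, 4.32% of symbols were called in mice (751 of 17376, limma), 27.5% in rats (3180 of 11584, edgeR), 7.26% in rats 17 to 24 and 43.8% in rats 25 to 32. Scaling to library totals instead of TMM raised the log2 genotype difference by 0.09 in rats, 0.02 in rats 17 to 24 and 0.16 in rats 25 to 32, and so also moved the difference between the ranges. It turned the split in rats from 1760 higher and 1420 lower to 2644 and 687, in rats 25 to 32 from 2534 and 2566 to 4252 and 1135, and for the difference between the ranges from 860 and 896 to 2319 and 350. In mice, library totals at the same added value turned it from 609 and 142 to 1018 and 57. All 12 proximal tubule markers in the mouse table and all 10 in the rat table had reads, and their summed level was 20316 to 21969 CPM in KO against 22669 to 28298 CPM in WT mice, 16093 to 17621 against 19211 to 22572 CPM in rats 17 to 24, and 13091 to 16787 against 27118 to 31073 CPM in rats 25 to 32. The 7 leukocyte markers in the mouse table summed to 313 to 391 CPM in KO and 213 to 251 CPM in WT mice, and the 7 in the rat table to 1219 to 1444 against 1244 to 1362 CPM in rats 17 to 24 and to 1364 to 2016 against 1358 to 1672 CPM in rats 25 to 32. Most of the rat sum was CD74, at 1140 to 1860 CPM in KO and 1190 to 1600 CPM in WT rats. Of the 6 leukocyte markers tested, 5 were called higher in KO in rats 17 to 24 (7.26% of all symbols were called). In rats 25 to 32 it was also 5 of 6, all higher (43.8% of all symbols were called). In mice 3 of 7 were called, all higher, beside 4.32% of all symbols. In rats 25 to 32 the genotypes also stood apart in the sums of thick limb and distal tubule (3945 to 4781 in KO against 2821 to 3485 CPM in WT), endothelial (206 to 241 against 277 to 292 CPM) and smooth muscle markers (124 to 133 against 102 to 111 CPM). The endothelial sums stood apart in rats 17 to 24 (317 to 324 against 326 to 346 CPM) and in mice (376 to 402 against 407 to 463 CPM) as well. The part of these shifts in the results for the members was not tested.

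Ctns itself, whose level checks the labels, was far lower in KO than in WT mice but kept a substantial number of reads. Its scaled value was 0.342, 0.338, 0.319 and 0.331 in KO mice 3, 5, 6 and 8, from 327, 440, 505 and 556 reads. In WT mice 1, 2, 4 and 7 it was 0.824, 1.03, 0.878 and 0.944. The groups stood well apart, and the KO mean was 36.2% of the WT mean (0.332 ± 0.0102 against 0.918 ± 0.0868, SD, n = 4 each). CTNS was the member called in mice, 1 of 9 and lower (4.32% of all symbols were called, 0.817% lower and 3.5% higher), with a log2 fold change of -0.52 on the log2(scaled value + 1) scale (SE 0.03, adjusted p = 0.000898, limma), a scale that understates changes of low values. On recovered reads the fall was 1.48 on the log2 scale by edgeR (log2 fold change -1.48, SE 0.08, adjusted p = 1.08e-07). Since the removed exons are not given here, the remaining reads could not be placed inside or outside the deleted stretch.

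In rats the same gene separated the genotypes poorly. CTNS was at 19.2, 19.5, 20.2 and 22.6 CPM in WT rats 17, 19, 21 and 23, and at 16.8, 18.7, 18.8 and 20.8 CPM in KO rats 18, 20, 22 and 24. In the higher range it was at 22.9, 27.8, 25.2 and 21.3 CPM in WT rats 25, 27, 29 and 31, and at 22.2, 17.9, 20.4 and 17.4 CPM in KO rats 26, 28, 30 and 32. The genotypes overlapped in both ranges, and 5 of 8 KO rats lay below every WT rat. Over all rats the KO mean was 85.6% of the WT mean (log2 fold change -0.22, SE 0.08, adjusted p = 0.0511, edgeR), just short of the threshold. It was past it with the number range as a covariate (adjusted p = 0.0251, edgeR), with DESeq2 (adjusted p = 0.0416) and without any 1 of WT rats 17, 19 and 21 and KO rats 24 and 26 (adjusted p = 0.0312 to 0.0453, edgeR). Scaled to library totals the log2 fold change was -0.13 (adjusted p = 0.271, edgeR). Within rats 25 to 32 CTNS was called (log2 fold change -0.32, SE 0.11, adjusted p = 0.0391, edgeR), a call lost without WT rat 25, 27 or 29 or KO rat 28, 30 or 32 (adjusted p = 0.0531 to 0.114) and with library totals (adjusted p = 0.314). Thus the level of CTNS reads tells KO from WT for each mouse but not for each rat, and the rat genotypes rest on the labels.

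The difference between the species was tested directly, after giving the rat reads the scale of the mouse values. The genotype change of CTNS was 0.47 higher in rats than in mice on the log2(scaled value + 1) scale (SE 0.04, adjusted p = 1.4e-07, limma), and 1.29 higher by edgeR on the reads of both species (adjusted p = 2.53e-06). CTNS was the 1 member of 9 called in this test, against 3.17% of the 11216 symbols tested (1.8% higher in rats). TAX1BP3, the next member by size on the log2(scaled value + 1) scale, had a difference of 0.36 (SE 0.16, adjusted p = 0.218, limma). It was called once the number range of the rats was a covariate (SE 0.09, adjusted p = 0.015, limma). That scale flattens low values such as those of TRPV3. From few reads, the KO mean of TRPV3 was 29% of the WT mean in mice and 164% in rats.

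**Figure D2:**
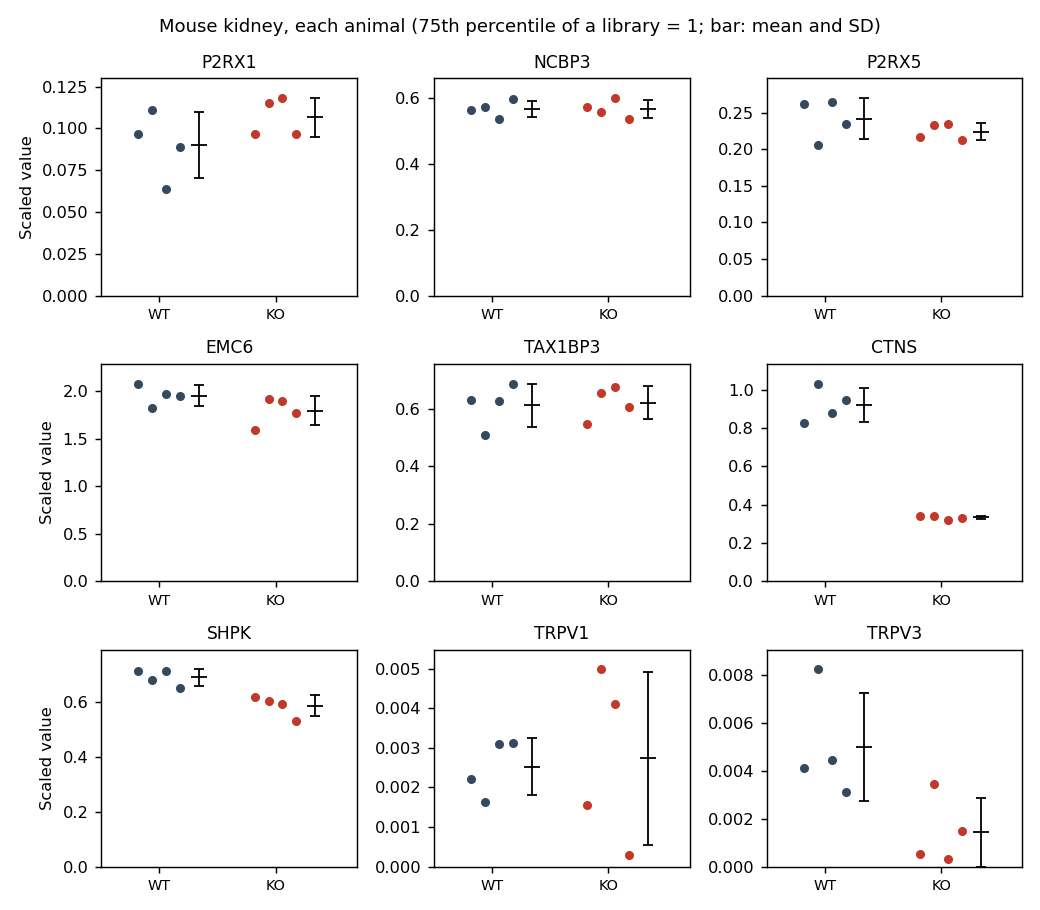
Scaled value of each member in each mouse (dots: WT dark, KO red; bars: mean and SD, n = 4), in chromosome order, with linear axes from 0. The CTNS dots of the KO mice lie near 0.332 and those of the WT mice between 0.824 and 1.03, the SHPK groups are narrowly apart, and the other 7 members overlap or rest on a handful of reads.

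SHPK, the head-to-head partner of Ctns, had a lower mean in KO animals of both species, and the difference passed the main test in rats but not in mice. Its scaled value was 0.616, 0.603, 0.591 and 0.53 in KO mice 3, 5, 6 and 8 and 0.712, 0.679, 0.712 and 0.651 in WT mice 1, 2, 4 and 7. All 4 KO mice lay below all 4 WT mice, which held in either direction for 11.6% of all symbols, and the KO mean was 85.0% of the WT mean. The main test missed the threshold (log2 fold change -0.09, SE 0.02, adjusted p = 0.0644, limma), whereas the recovered reads passed it by edgeR (log2 fold change -0.26, SE 0.07, adjusted p = 0.0302) and DESeq2 (adjusted p = 0.0172), and library totals did not (adjusted p = 0.169, limma).

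SHPK fell in rats. It was at 43.4, 49.3, 51.4 and 54.1 CPM in WT rats 17, 19, 21 and 23 and at 45.6, 42.7, 44.4 and 43.2 CPM in KO rats 18, 20, 22 and 24. Among rats 25 to 32 it was at 56.0, 62.1, 66.6 and 61.5 CPM in WT and 49.1, 44.9, 43.1 and 45.2 CPM in KO animals. The 8 KO rats were tightly grouped around 44.8 ± 2.05 CPM (SD), and the WT rats spread more widely at 55.5 ± 7.61 CPM (SD, n = 8). Over all rats the log2 fold change was -0.31 (SE 0.07, adjusted p = 0.00443, edgeR), and it stayed called in each of the alternatives and without any 1 rat (-0.36 to -0.25). SHPK, TRPV1 and TAX1BP3 were the 3 of 9 members called in rats, 2 lower and 1 higher, against 27.5% of all symbols (12.3% lower, 15.2% higher). In 0 of 9 members did the 8 KO rats stand wholly apart from the 8 WT rats, as 5.84% of all symbols did.

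The fall was called within rats 25 to 32 (log2 fold change -0.43, SE 0.07, adjusted p = 0.000721, edgeR), where the genotypes did not overlap, as for 40.3% of all symbols. Within rats 17 to 24 the value was -0.17 (SE 0.07, adjusted p = 0.176, edgeR), and it was called without WT rat 17 (-0.23, adjusted p = 0.0316). The difference between the ranges missed the threshold (log2 difference -0.26, SE 0.10, adjusted p = 0.0777, edgeR), and passed it without WT rat 23 or KO rat 26 (adjusted p = 0.04 and 0.0492). Fewer tubule cells and less RNA per cell cannot be told apart in such bulk samples.

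Within each library the reads of the pair can be set against each other without any scaling. In WT mice there were 1.16 to 1.51 CTNS reads per SHPK read and in KO mice 0.538 to 0.625, so the ratio set the genotypes clearly apart. In rats it was 0.347 to 0.447 in WT and 0.367 to 0.481 in KO animals, with the genotypes intermingled. The 2 genes thus kept much the same proportion in rats of either genotype, while both stood lower in KO animals of the higher range.

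**Figure D3:**
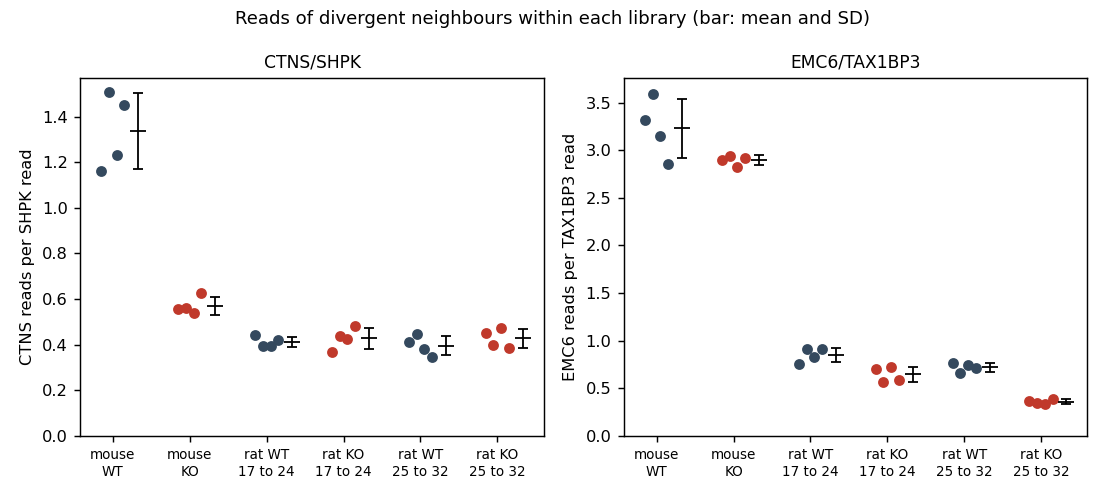
Reads of one gene per read of its head-to-head partner in each library (dots; bars: mean and SD, n = 4), CTNS per SHPK at left and EMC6 per TAX1BP3 at right, with axes from 0. The CTNS per SHPK ratio separates the genotypes in mice and overlaps in rats, and the EMC6 per TAX1BP3 ratio is lowest in KO rats 25 to 32.

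Beyond SHPK lie TRPV1, the heat- and capsaicin-gated cation channel of sensory neurons, and TRPV3, a warmth-gated channel best known from skin. TRPV1 differed in kind between the species. In mice it had 1, 6, 6 and 0 reads in KO animals 3, 5, 6 and 8 and 3, 1, 4 and 6 reads in WT animals 1, 2, 4 and 7, where the 0 allows up to 0.0865 CPM (3 reads, counting error only). In rats it had 1534 to 2831 reads per library, 1.01 to 1.45 for every SHPK read. Which rat transcripts these reads come from was not tested.

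TRPV1 fell in rats. Its level was 63.0, 55.6, 72.6 and 65.4 CPM in WT rats 17, 19, 21 and 23 and 56.8, 52, 61.1 and 53.9 CPM in KO rats 18, 20, 22 and 24. In rats 25 to 32 it was 69.4, 73.2, 67.5 and 85.9 CPM in WT and 61.3, 58.6, 53.9 and 65.2 CPM in KO animals. The genotypes overlapped in the lower range and stood apart in the higher, as they did there for 40.3% of all symbols. The log2 fold change over all rats was -0.26 (SE 0.07, adjusted p = 0.0166, edgeR), in rats 25 to 32 -0.31 (SE 0.09, adjusted p = 0.0153) and in rats 17 to 24 -0.19 (SE 0.08, adjusted p = 0.192). With library totals neither call held (log2 fold changes -0.16 and -0.15, adjusted p = 0.0502 and 0.131, edgeR).

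TRPV3 was scarce in both species. In mice it had 0, 4, 0 and 2 reads in KO animals 3, 5, 6 and 8 and 6, 7, 6 and 6 reads in WT animals 1, 2, 4 and 7, without a call (adjusted p = 0.177, limma), and the reads of 0 in KO mice 3 and 6 allow up to 0.15 and 0.0904 CPM. In rats it had 6 to 21 reads per library in WT and 9 to 47 in KO animals, or 0.419 ± 0.181 and 0.686 ± 0.349 CPM (SD, n = 8). The genotypes overlapped, and the highest value, 1.44 CPM in KO rat 30, was far above the next, 0.809 CPM. The log2 fold change was 0.72 (SE 0.32, adjusted p = 0.098, edgeR) and passed the threshold with the number range as a covariate (adjusted p = 0.0285) and without WT rat 25 or KO rat 18 (adjusted p = 0.043 and 0.0415). In rats 25 to 32 it was called with library totals (0.93, adjusted p = 0.0496, edgeR) and not otherwise (0.76, adjusted p = 0.0861). At this depth neither a change nor its absence is settled.

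**Figure D4:**
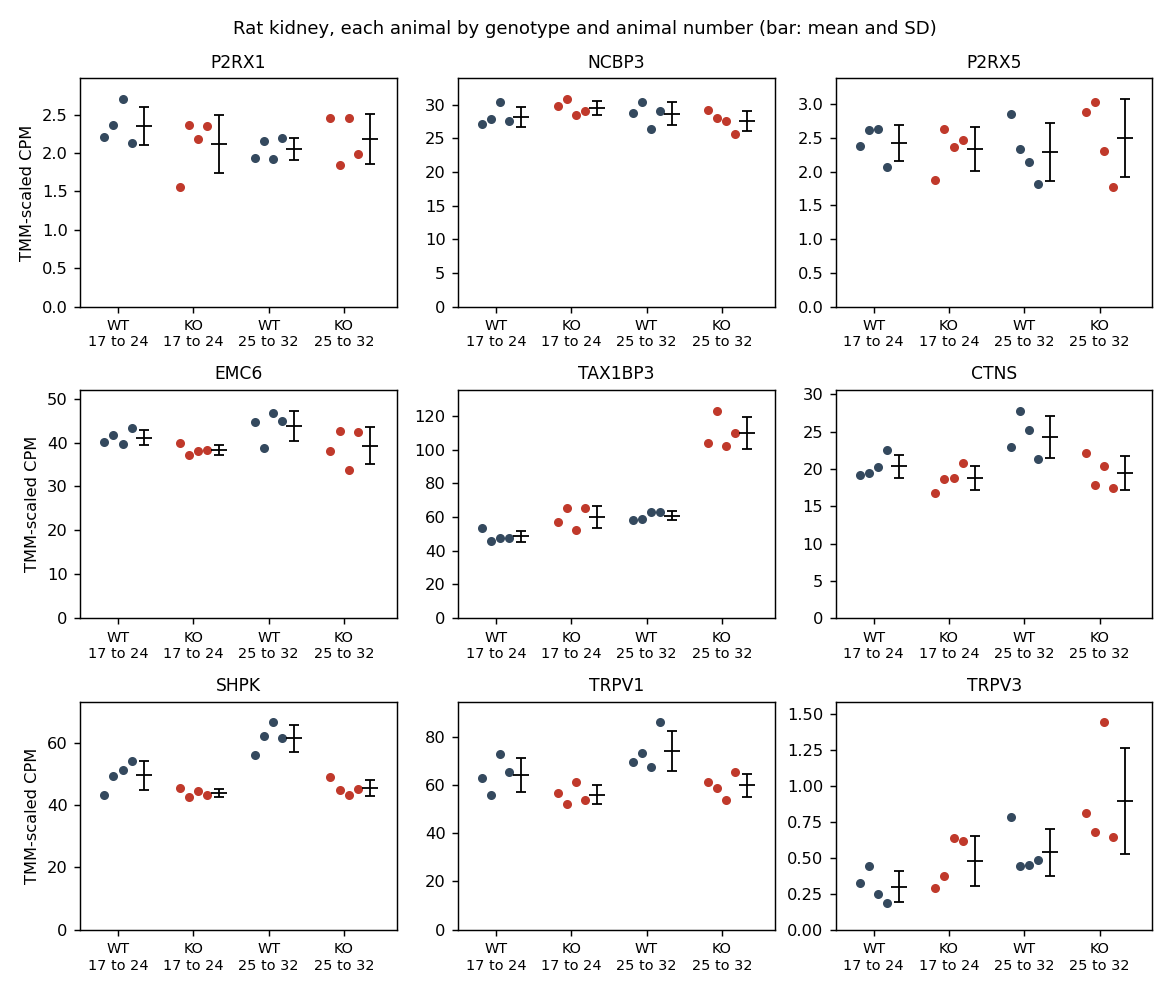
TMM-scaled CPM of each member in each rat (dots: WT dark, KO red; bars: mean and SD, n = 4), by genotype and animal number, in chromosome order, with linear axes from 0. TAX1BP3 in KO rats 25 to 32 lies at 102 to 123 CPM, above all other rats, while SHPK in the KO rats of both ranges stays between 42.7 and 49.1 CPM.

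On the other side of Ctns the 1 member that rose in rats was TAX1BP3, which encodes a small protein made almost entirely of a PDZ domain and known to bind β-catenin and other partners. Its level was 53.2, 45.6, 47.8 and 47.5 CPM in WT rats 17, 19, 21 and 23 and 57.2, 65.4, 52.4 and 65.1 CPM in KO rats 18, 20, 22 and 24. In rats 25 to 32 it was 58.5, 58.7, 62.9 and 63.1 CPM in WT and 104, 123, 102 and 110 CPM in KO animals. In the higher range the lowest KO rat stood far above the highest WT rat, whereas in the lower range KO rat 22 lay below WT rat 17. The genotypes had no overlap in the higher range for 40.3% of all symbols. In rats 17 to 24 the genotypes overlapped for all 9 members, while 13.7% of all symbols had no overlap there.

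TAX1BP3 rose over all rats (log2 fold change 0.63, SE 0.17, adjusted p = 0.00931, edgeR), in rats 25 to 32 (0.85, SE 0.07, adjusted p = 1.09e-05) and in rats 17 to 24 (0.32, SE 0.08, adjusted p = 0.0274). It was the 1 member of 9 called in rats 17 to 24, against 7.26% of all symbols (5.07% higher, 2.19% lower), and that call was lost without WT rat 19, 21 or 23 or KO rat 20 or 24 (adjusted p = 0.0624 to 0.0946, edgeR). In rats 25 to 32 it was among 4 of 9 members called, with CTNS, SHPK and TRPV1 lower, against 43.8% of all symbols (21.8% higher, 22.1% lower). The rise was larger in the higher range by 0.54 (log2, SE 0.11, adjusted p = 0.00449, edgeR), and by 0.48 to 0.59 without any 1 rat. TAX1BP3 was the 1 member of 9 for which this difference was called, against 15.2% of all symbols (7.42% higher, 7.73% lower).

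In mice TAX1BP3 did not follow. Its scaled value was 0.547, 0.653, 0.674 and 0.607 in KO and 0.628, 0.507, 0.625 and 0.685 in WT animals. The groups overlapped fully, and the log2 fold change was 0.01 (95% interval -0.069 to 0.086, adjusted p = 0.962, limma). Set against the mice alone, the change of TAX1BP3 was 0.56 higher in rats 25 to 32 (SE 0.06, adjusted p = 6.83e-06, limma, log2(scaled value + 1) scale) and 0.16 higher in rats 17 to 24 (SE 0.06, adjusted p = 0.197), so the species difference was called for the higher range and not for the lower. These fits by range were chosen after the data were seen, and with them 2812 and 265 of 11216 symbols were called.

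EMC6, which lies head to head with TAX1BP3, encodes a subunit of the ER membrane complex that inserts membrane proteins into the endoplasmic reticulum. Its scaled value was 1.59, 1.92, 1.9 and 1.77 in KO and 2.08, 1.82, 1.97 and 1.95 in WT mice (log2 fold change -0.08, SE 0.05, adjusted p = 0.432, limma). In rats it ranged from 33.8 to 42.6 CPM in KO (median 38.1) and from 38.7 to 46.7 CPM in WT animals (median 42.4), with 5 of 8 KO rats below every WT rat. Its log2 fold change was -0.13 (SE 0.05, adjusted p = 0.088, edgeR), so no change was called in either species. There were 0.569 to 0.727 EMC6 reads per TAX1BP3 read in KO against 0.754 to 0.913 in WT rats 17 to 24, and 0.332 to 0.388 against 0.66 to 0.765 in rats 25 to 32. The ratio separated the genotypes in each range, unlike that of the Ctns and Shpk pair. It overlapped over all rats (0.332 to 0.727 in KO, 0.66 to 0.913 in WT) and in mice (2.82 to 2.94 in KO, 2.85 to 3.59 in WT). Since it holds the same TAX1BP3 reads that were called above, it is not a separate result. How many other gene pairs separate the genotypes was not tested.

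P2RX5 and P2RX1 encode subunits of ATP-gated cation channels, P2RX1 being best known from smooth muscle and platelets. P2RX5 had a scaled value of 0.212 to 0.234 in KO and 0.205 to 0.265 in WT mice, and 1.78 to 3.03 CPM in KO and 1.82 to 2.86 CPM in WT rats. P2RX1 had 0.0966 to 0.118 in KO and 0.0635 to 0.111 in WT mice, and 1.56 to 2.46 CPM in KO and 1.92 to 2.7 CPM in WT rats. For both genes the genotypes overlapped in either species. Neither was called, with log2 fold changes in rats of 0.04 (95% interval -0.22 to 0.29, adjusted p = 0.852, edgeR) and -0.03 (-0.26 to 0.19, adjusted p = 0.854), intervals that leave room for smaller changes than that of SHPK.

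NCBP3, which binds the cap of mRNA and takes part in its export, was the steadiest member. Its scaled value was 0.536 to 0.6 in KO and 0.536 to 0.596 in WT mice, and its level 25.7 to 30.8 CPM in KO and 26.4 to 30.4 CPM in WT rats. The log2 fold change was 0.00 in mice (95% interval -0.034 to 0.034, adjusted p = 0.991, limma) and 0.01 in rats (-0.085 to 0.099, adjusted p = 0.923, edgeR). These intervals exclude changes as large as that of SHPK in the same tables.

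**Figure D5:**
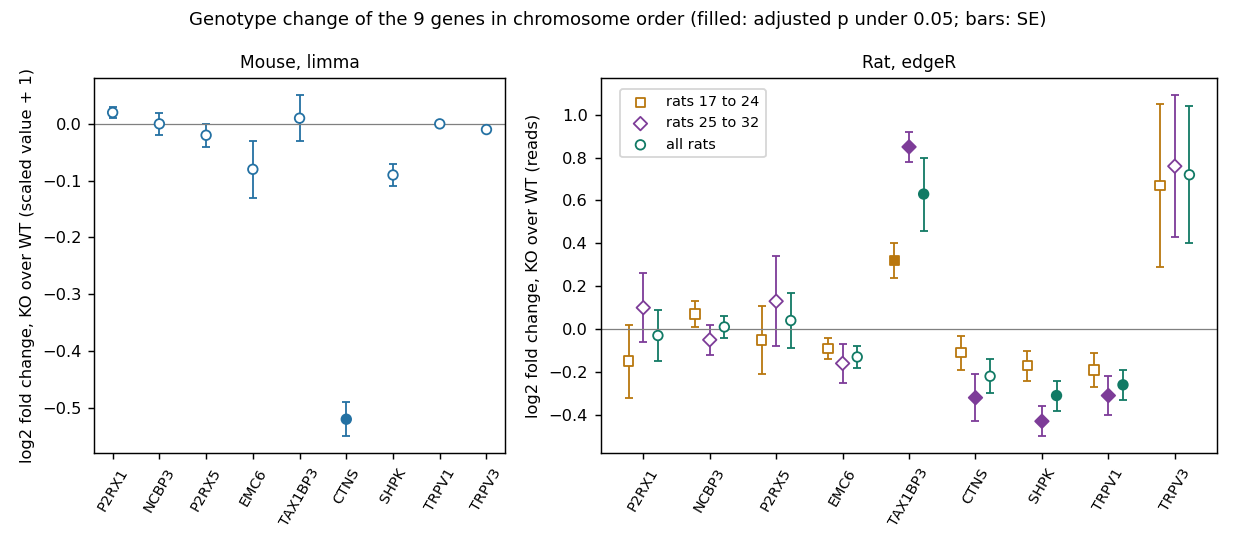
log2 fold change of each member, KO over WT, in chromosome order (points with SE bars; filled where the adjusted p is under 0.05), for mice at left on the log2(scaled value + 1) scale and for rats at right on the scale of reads (squares: rats 17 to 24; diamonds: rats 25 to 32; circles: all rats), so the axes differ. CTNS is the 1 filled point in mice, at -0.52, and in rats TAX1BP3 is filled above 0 in both ranges while the points of TRPV3 are high but open, with long bars.

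The number range itself, averaged over the genotypes, went with the level of 3 of 9 members, against 41.5% of all symbols. Rats 25 to 32 had more TAX1BP3 (log2 difference 0.60, SE 0.09, adjusted p = 5.02e-05, edgeR), more TRPV3 (0.88, SE 0.25, adjusted p = 0.00947) and more SHPK (0.18, SE 0.06, adjusted p = 0.0185). For TAX1BP3 this average stands for unlike steps, from 48.5 to 60.8 CPM in WT and from 60 to 110 CPM in KO rats. For SHPK the means went from 49.6 to 61.5 CPM in WT and from 44.0 to 45.5 CPM in KO rats. The SHPK call was lost without WT rat 29 (adjusted p = 0.0531) and with library totals (adjusted p = 0.069). Since the labels give no meaning to the ranges, age, batch and other differences between them cannot be told apart.

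Levels of the 9 genes can be ranked only per length, which the mouse annotation allows. Per kb of exon, the mean scaled value in WT mice was 1.38 for EMC6, 0.401 for TAX1BP3, 0.337 for CTNS, 0.245 for SHPK, 0.101 for P2RX5, 0.0468 for NCBP3, 0.0363 for P2RX1, 0.000853 for TRPV3 and 0.000708 for TRPV1. In KO mice CTNS dropped below SHPK, at 0.122 against 0.208 per kb. TRPV1 and TRPV3 do not differ beyond their spread in this order.

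Over the 9 members the median log2 fold change was -0.01 in mice, beside 0.0 over all symbols tested, and -0.03 in rats beside -0.02. Within 0.5 Mb of the start of Ctns, members included, 2 of 16 tested symbols were called in mice (12.5%, against 4.32% of all symbols), 1 of them CTNS itself, without which 1 of 15 was called (6.67%), and 6 of 18 in rats (33.3%, against 27.5%). Rat distances are those of GRCr8. Within 1 Mb they were 4 of 29 (13.8%, or 10.7% without CTNS) and 11 of 29 (37.9%). Within 5 Mb they were 13 of 220 (5.91%) and 48 of 175 (27.4%), and within 10 Mb 15 of 306 (4.9%) and 65 of 234 (27.8%). In both species the share was thus near that of all symbols by 5 Mb, and the counts at the shorter distances are small.

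Among the genes between and beside the members, HASPIN, a kinase that phosphorylates histone H3 in mitosis, moved in opposite directions in the 2 species. In mice it was 0.0747 to 0.112 scaled units in KO and 0.121 to 0.157 in WT animals (log2 fold change -0.07, SE 0.01, adjusted p = 0.0451, limma; -0.68 by edgeR on recovered reads, adjusted p = 0.00861), a call that library totals did not keep (-0.06, adjusted p = 0.0624, limma). In rats it was 3.32 to 5.4 CPM in KO and 2.77 to 3.43 CPM in WT animals (log2 fold change 0.52, SE 0.11, adjusted p = 0.00182, edgeR). The species difference was 0.11 on the log2(scaled value + 1) scale (adjusted p = 9.1e-05, limma). Haspin shares 2810 bp with Itgae on the opposite strand, and the strand setting of the counting is not given. ITGAE, an integrin of intraepithelial lymphocytes, rose in rats (log2 fold change 0.42, SE 0.10, adjusted p = 0.00381, edgeR). It was called in rats 25 to 32 (0.61, adjusted p = 0.00267) and not in rats 17 to 24 (0.26, adjusted p = 0.251, edgeR). In mice ITGAE was not called (0.0, adjusted p = 0.951, limma). Of the leukocyte markers 5 of 6 tested were called in rats, all higher, beside 27.5% of all symbols. In mice they were 3 of 7, all higher, beside 4.32%. A link between these markers and ITGAE was not tested. ASPA, the deacetylase of N-acetylaspartate, fell in rats (-0.50, SE 0.13, adjusted p = 0.0106, edgeR). Its fall was called in rats 25 to 32 (-0.9, adjusted p = 1.86e-05) and not in rats 17 to 24 (-0.17, adjusted p = 0.363, edgeR). Of the 20 tested genes of a list of the wider locus, 3 were called in mice (4.32% of all symbols were), with CXCL16 higher (0.27) and GGT6 (-0.16) and HASPIN lower, and 6 in rats (27.5% of all symbols were), 4 higher and 2 lower. With library totals these were 2 higher and 0 lower in mice by limma (7 at an unadjusted p under 0.05) and 7 higher and 1 lower in rats.

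Among the families to which the members belong, the TRPV channels had the most calls in rats, 4 of 6. Of all symbols 27.5% were called in rats and 4.32% in mice. Of the 6 TRPV channels in rats, TRPV2 (log2 fold change 1.40, SE 0.18, adjusted p = 5.01e-05, edgeR) and TRPV6 (1.36, SE 0.23, adjusted p = 0.000397) rose and TRPV4 (-0.26, SE 0.05, adjusted p = 0.00143) fell with TRPV1; their median was 0.50, beside -0.02 over all symbols. TRPV2 and TRPV6 were low, at 4.53 ± 1.31 and 2.11 ± 0.655 CPM in KO against 1.71 ± 0.341 and 0.822 ± 0.262 CPM in WT rats (SD, n = 8). With library totals the TRPV calls were 3 higher and 1 lower. In mice 0 of 6 TRPV channels were called by limma, edgeR (4 tested) or DESeq2, and 2 had an unadjusted p under 0.05 by limma.

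Of the P2X receptors P2RX4 rose in rats (0.36, SE 0.09, adjusted p = 0.006, edgeR), at 29.4 ± 4.43 CPM in KO against 22.9 ± 2.01 CPM in WT animals (SD, n = 8). It was the 1 called of 5 tested (median of the list 0.18), beside 27.5% of all symbols in rats. In mice 0 of 7 were called by limma, edgeR or DESeq2, beside 4.32% of all symbols by limma, and 1 had an unadjusted p under 0.05. Of the ER membrane complex EMC9 was lower in mice (log2 fold change -0.08, SE 0.01, adjusted p = 0.0365, limma), a call not kept with library totals. It was the 1 called of 9 (median -0.03), beside 4.32% of all symbols. In rats 0 of 8 were called by edgeR, DESeq2 or limma-voom (2 at an unadjusted p under 0.05, median -0.07), beside 27.5% of all symbols by edgeR. With edgeR, 1 of 8 was called in rats with the number range as a covariate (4443 of 11584 symbols were) and 1 of 8 with library totals (3331 of 11584). Within rats 25 to 32 it was 1 of 8, beside 43.8% of all symbols. That gene was EMC10, higher in KO (0.34, SE 0.07, adjusted p = 0.00391, edgeR). With EMC6 counted, values lay below 0 in 8 of 9 genes in mice and 6 of 8 in rats by the main tests. The medians over all symbols were 0.0 and -0.02. With library totals 3 of 8 were called in rats 25 to 32, all higher (5387 of 11633 symbols were called). The number below 0 under that scaling was not counted. NCBP1, the large subunit of the nuclear cap-binding complex, fell in rats (-0.44, SE 0.11, adjusted p = 0.00634, edgeR). It was the 1 called of 7 genes of cap binding and RNA export (median -0.04), beside 27.5% of all symbols. In mice 0 of 8 were called by limma, edgeR or DESeq2 (0 at an unadjusted p under 0.05), and 1, higher, by limma with library totals. Of 4 genes of the non-oxidative pentose phosphate pathway, SHPK was the 1 called in rats (median 0.03), beside 27.5% of all symbols. In mice 0 were called by limma (1 by edgeR and by DESeq2, SHPK, and 1 at an unadjusted p under 0.05).

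The symbols whose pattern over the libraries was most like that of CTNS, by Pearson's r on log2(CPM + 1), were PCCB (0.989), INTS2 (0.988), MAPKAP1 (0.988), SPP2 (0.984) and TTC7B (0.979) over the 8 mice, among 12491 symbols, and GAK (0.925), SPTAN1 (0.925), EPB41L3 (0.914), DYNC1LI1 (0.911) and AGAP1 (0.903) over the 16 rats, among 10818. SHPK was at rank 281 in mice (r = 0.86) and 126 in rats (r = 0.792). TRPV1 was at rank 1908 in rats (r = 0.487) and TAX1BP3 at 7105 (r = -0.212). These points share the genotype contrast and the depth of the libraries, and the values are a description.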

How the data were processed

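Bulk mRNA libraries of 24 animals were prepared with a stranded kit and sequenced as paired reads. The submitters' processing notes name bcl2fastq 2.20, STAR 2.7.3, DESeq2 1.24.0 and R 3.6.1, and the builds mm10 and rn5; the counting program and its strand setting are not given in the sources used here. The deposited mouse table holds a signal, worked out from its values as reads with 0.5 added, over the 75th percentile of that library's reads, from which whole reads were recovered for 99.0% of values (within 0.01 of a whole read). The deposited rat table holds estimated counts, reads to which the authors' values add 1/6, and 97.7% were whole. All 9 members came out whole in every animal. Symbols are written in human style in both tables, and shares of reads between near-identical genes could not be checked.

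Mice were tested with limma 3.58.1 (trend, robust) on log2(scaled value + 1) without a filter, and rats with edgeR 4.0.16 (quasi-likelihood, robust, TMM, filterByExpr) on rounded reads, in R 4.3.3, with Benjamini-Hochberg adjustment over all symbols tested and two-sided p-values. Each comparison used the animals it names, and the difference between number ranges was an interaction term. Alternatives were edgeR and DESeq2 1.42.0 on recovered reads, limma-voom, other scalings and filters, and leaving out each animal. The fits were tested on simulated data. Positions come from GENCODE vM21 (GRCm38, the same as mm10) and RefSeq GRCr8, which is not the rat build of the submitters and served for the rat gene order, the rat distances from Ctns and the promoter sequences. Of 9 members, 8 matched a promoter sequence.

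The members and gene lists were chosen with earlier results of these data known. Named beside the members were at most 4 called genes per list and species, by p, at most 5 called genes within 0.5 Mb by distance, and the 5 symbols most like CTNS at a mean of at least 1 CPM; HASPIN was followed into the species test after its values were seen. The labels do not say more of the replicates than that each is an animal. No 2 libraries of a group were as alike as sampling alone would make them (chi-square over its degrees of freedom at least 12.7 in mice and 8.85 in rats). Floors for 0 reads cover counting error only.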

Additional observations from a re-analysis of the deposited data

Results flagged for a closer look

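Over the 36 groups tested for an animal that lies far from the others, of which chance picks about 1 in 20, 2 stood out. SHPK in KO rats was highest in rat 26, at 49.1 CPM, away from the other 7. TRPV3 in KO rats was highest in rat 30, at 1.44 CPM, a level that rests on 47 reads. In 2 further cases the genotype change differed between sets of animals by a test of the difference. TAX1BP3 rose more in rats 25 to 32 than in rats 17 to 24, by 0.54 on the log2 scale (adjusted p = 0.00449, edgeR). The change of CTNS was 0.47 higher in rats than in mice on the log2(scaled value + 1) scale (adjusted p = 1.4e-07, limma). What lies behind these 4 results was not tested.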

How the results depend on the processing

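Of 441 values of members under other settings, 406 kept direction and side of the threshold, 13 passed it newly, 7 no longer passed it and 15 turned sign. The number of members called in mice went from 1 to 2 with edgeR and to 2 with DESeq2 on recovered reads (1198 of 13442 and 1520 of 15821 symbols called), in rats from 3 to 5 with the number range as a covariate (4443 of 11584 symbols), and for the species difference from 1 to 2 with that covariate (885 of 11216) and with rats 25 to 32 alone (2812 of 11216), both chosen after seeing the data. Leaving out 1 rat gave 0 to 2 members called in rats 17 to 24 and 1 to 2 for the difference between the ranges. With library totals, chosen after seeing the data, the log2 fold change turned for P2RX1 in rats (0.06), NCBP3 in rats 25 to 32 (0.11), TRPV1 (0.03), EMC6 (0.08) and NCBP3 (0.02) in the difference between the ranges, and P2RX5 in the range contrast (-0.05); SHPK turned in the species difference with rats 17 to 24 alone (0.02). Leaving out 1 animal turned TAX1BP3 in mice (lowest -0.02), P2RX5 (lowest -0.01), P2RX1 (-0.06 to 0.04) and NCBP3 (-0.01 to 0.05) in rats, P2RX5 in rats 17 to 24 (-0.12 to 0.04), TRPV3 (-0.24 to 0.32) and EMC6 (-0.11 to 0.01) in the difference between the ranges and P2RX5 in the range contrast (-0.05 to 0.05). None of the values that turned was called. Over all symbols, mice gave 352 calls by limma without WT mouse 4, against 751. The difference between the ranges gave 2669 calls with library totals, and 1019 without KO rat 28, against 1756. Rats 17 to 24 gave 504 without KO rat 24 against 843, and the species difference gave 123 with a minimum mean of 0.1 and 181 without KO mouse 6 against 355. The causes were not tested. Reads limit TRPV1 in mice and TRPV3 in both species. No paired analysis was made because the labels name no litters or pairs of animals.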
